A study of Homo sapiens with 6 samples.

Results

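Transforming growth factor beta (TGF-beta) signalling was described here through 10 genes in AsPC-1 cells, an established line from a metastatic human pancreatic adenocarcinoma. The genes were chosen by symbol and are the ligands TGFB1, TGFB2 and TGFB3, the receptors TGFBR1 and TGFBR2, the signal carriers SMAD2, SMAD3 and SMAD4, and the inhibitors SMAD6 and SMAD7. All 10 symbols were found among the 58735 genes of the table, and all 10 passed the filter on low counts that left 15319 genes for testing. In the 3 libraries of cells with a lentivirus carrying MMP28 (OE-MMP28), TGFB2 was 5.44-fold and SMAD6 1.85-fold higher than in the 3 libraries of cells with the empty lentivirus (Vector). The other 8 genes did not pass the test.

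The ligands are secreted in a latent form, bound to their own propeptide and to latent TGF-beta binding proteins, and have to be released before they can act. An active ligand binds the type II receptor TGFBR2, which phosphorylates the type I receptor TGFBR1. TGFBR1 in turn phosphorylates SMAD2 and SMAD3, which join SMAD4 and regulate genes in the nucleus, whereas SMAD6 and SMAD7 block the receptor step. TGF-beta restrains the growth of normal epithelia, and SMAD4 is inactivated in many pancreatic ductal carcinomas.

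Both groups were unstimulated AsPC-1 cells that differed by label in the virus alone, an empty vector or one with the MMP28 coding sequence, under puromycin selection and with a GFP marker on the construct. MMP28 is a secreted matrix metalloproteinase, and the comparison asks what its higher expression changes in these cells. It is 1 cell line, and whether the 3 libraries of a group came from separate infections or cultures is not given in the sources used here, so the p-values measure only the spread between these samples, which may be technical. MMP28 had 5.17, 9.11 and 8.43 FPKM in the Vector libraries. FPKM is a read count divided by gene length and library size, which was here 0.980 to 1.02 times the total counts. It had 13.1, 13.9 and 15.1 FPKM in the OE-MMP28 libraries, a log2 fold change of 0.90 (edgeR quasi-likelihood test, adjusted p = 0.00226).

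Total counts ranged from 13633249 to 16691458 per library, and mitochondrial genes took between 8.80% and 14.8% of them. Among the 6 ductal markers, KRT8, KRT18, KRT19 and EPCAM had at least 260 FPKM in every library, MUC1 had 13.0 to 71.8 FPKM and KRT7 only 0.597 to 2.22 FPKM. The summed level of the 6 was 10366 to 14829 CPM (counts scaled to a common library total) in Vector and 14340 to 18332 CPM in OE-MMP28. KRT19 (1.64-fold, adjusted p = 0.00175) and MUC1 (4.46-fold, adjusted p = 3.60e-08) were higher in OE-MMP28 (edgeR quasi-likelihood test). Of 15 markers of fibroblasts, leukocytes, endothelium, acinar and endocrine cells, PRSS1, CPA1 and INS had a count of 0 in every library. The summed fibroblast list had 103 to 126 CPM in Vector and 120 to 168 CPM in OE-MMP28 and rested on LUM. The endothelial pair had 0 to 0.343 CPM and 0.805 to 1.80 CPM, where PECAM1 rose (edgeR quasi-likelihood test, adjusted p = 0.00361), and the leukocyte list had at most 0.578 CPM in any library. The part of these marker differences in the results below was not tested. In bulk RNA, fewer cells with a transcript and less of it per cell cannot be told apart.

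TGFB2, one of the 3 ligand genes, showed the widest difference among the 10. Its level was 1.38, 0.862 and 1.09 FPKM in the Vector libraries, from 109, 60 and 83 counts. In the OE-MMP28 libraries it was 6.91, 5.88 and 5.32 FPKM, from 563, 480 and 461 counts. Each OE-MMP28 library was therefore several fold above the highest Vector library. The means were 1.11 ± 0.262 and 6.04 ± 0.808 FPKM (SD, n = 3 each). The fitted fold was 5.44 (95% interval 4.04 to 7.31), a log2 fold change of 2.44 with a standard error of 0.20 (edgeR quasi-likelihood test, Benjamini-Hochberg adjusted p = 6.75e-08 over 15319 genes). It ranked number 67 of the 15319 tested genes by log2 fold change, and it stayed past an adjusted p of 0.05 in 17 of 17 alternative settings.

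TGFB2 (ENSG00000092969) lies on the plus strand of chromosome 1, chr1:218346235-218444619 in GRCh38 and GENCODE release 29. RefSeq starts the gene 899 bases farther upstream. The 250 bases before the RefSeq start, chr1:218345086-218345335 on the plus strand (sequence from RefSeq, GRCh38.p14), are given because TGFB2 had the widest difference of the ligands. Capitals mark matches to the motifs that were searched: ACGTCA, the minus-strand reading of the cyclic AMP response core TGACGT, at 71 to 66 bases before the start, the E-box CACGTG at 49 to 44 bases and the TATA box letters TATAAA at 29 to 24 bases.
TGFB2: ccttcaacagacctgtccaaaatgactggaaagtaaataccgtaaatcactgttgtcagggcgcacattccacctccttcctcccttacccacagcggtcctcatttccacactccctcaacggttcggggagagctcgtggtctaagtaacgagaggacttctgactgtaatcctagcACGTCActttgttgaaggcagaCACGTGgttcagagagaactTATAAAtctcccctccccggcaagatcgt
Across 35116 windows of this length, searched on both strands, TGACGT was found in 7.10%, CACGTG in 6.35% and TATAAA in 10.7%. The matches in the TGFB2 window do not overlap each other. Among the 26 windows of the 10 genes, those of TGFB3 also held the same 3 motifs, with CACGTG in one and the other two in another. CACGTG was further found in a window of SMAD3 and TATAAA in a window of SMAD7. A match is a run of letters, and binding was not measured.

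The RefSeq window of TGFB2 lies inside the antisense gene TGFB2-AS1 (ENSG00000232480, chr1:218344196-218345678, minus strand), which was picked out after its values were seen. TGFB2-AS1 had 6, 1 and 2 counts in the Vector libraries and 28, 30 and 21 in the OE-MMP28 libraries (edgeR quasi-likelihood test, adjusted p = 0.000703). Of the Vector counts, 1 and 2 lie under the limit of 3 that a count of 0 allows, and 6 lies above it. All are low, so no fold is given. The gene as RefSeq places it would overlap TGFB2-AS1 by 343 bases, whereas in the annotation used for counting the genes lie 556 bases apart. The library kit does not mark strand by the sources used here, so reads of TGFB2 that start upstream and reads of TGFB2-AS1 cannot be told apart. No base of the counted TGFB2 exons overlaps TGFB2-AS1. In OE-MMP28, TGFB2-AS1 had at most 30 counts and TGFB2 at least 461, and in Vector at most 6 and at least 60. The part of shared reads in the TGFB2 difference was not tested. The gene TGFB2-OT1 covers 26.6% of the TGFB2 exon bases on the same strand and had a count of 0 in every library. How reads in bases shared by genes were assigned is not given in the sources used here, so this 0 does not show that TGFB2-OT1 is silent. If such reads were left out of both genes, the FPKM of TGFB2 and its share of the ligands would be too low.

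TGFB1 (ENSG00000105329, chr19:41301587-41353911, minus strand) was the most abundant ligand in both groups. It had 16.1, 17.8 and 17.8 FPKM in the Vector libraries, from 795, 781 and 851 counts. It had 10.2, 13.6 and 15.8 FPKM in the OE-MMP28 libraries, from 523, 698 and 859 counts. The FPKM values of the groups did not overlap, although OE-MMP28 replicate 3 came close to the lowest Vector library, and after TMM scaling (trimmed mean of M-values, a correction of library totals) the groups did overlap. The means were 17.2 ± 1.03 and 13.2 ± 2.80 FPKM (SD, n = 3 each), with a log2 fold change of -0.37 (95% interval -0.73 to -0.01, edgeR quasi-likelihood test, adjusted p = 0.126). This difference was not past the threshold, and its unadjusted p was 0.0433. HNRNPUL1, on the opposite strand, overlaps 6.64% of the TGFB1 exon bases and had 2961 to 5107 counts, so part of those reads may be shared.

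TGFB3 (ENSG00000119699, chr14:75958099-75982991, minus strand) was the least abundant of the 10 genes. It had 24, 32 and 16 counts in Vector and 51, 29 and 44 in OE-MMP28, or 0.319, 0.482 and 0.221 against 0.656, 0.372 and 0.532 FPKM. The groups overlapped, and the log2 fold change was 0.62 (95% interval -0.13 to 1.38, adjusted p = 0.224, edgeR quasi-likelihood test). The 72 tested genes within 5 Mb of TGFB3 had a median log2 fold change of 0.62, and 39 of them were higher. With each gene set against its neighbours, the log2 fold change of TGFB3 was 0.0060 (adjusted p = 0.993).

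**Figure D1:**
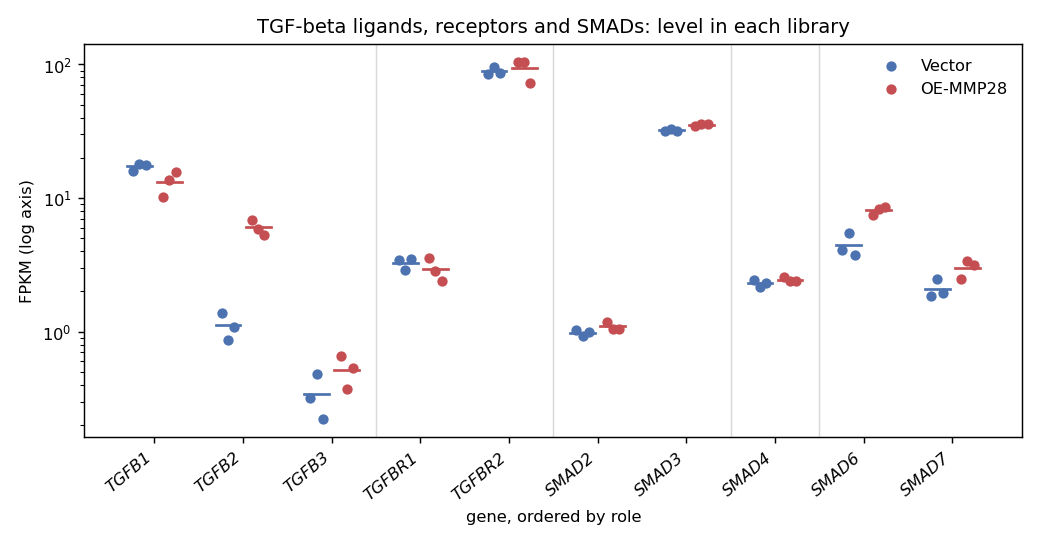
FPKM (log axis) of the 10 genes in each library, with 3 Vector (blue) and 3 OE-MMP28 (red) libraries per gene and a line at each mean. The groups of TGFB2 and SMAD6 stand well apart, while those of TGFBR1, TGFBR2 and SMAD4 overlap.

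In these libraries TGFB2 made up a larger share of the ligand messages in OE-MMP28, while the test of their sum did not pass. With 3 libraries per group, that does not show that the sum was equal. The summed FPKM of the 3 ligands was 17.8, 19.2 and 19.1 in Vector and 17.8, 19.8 and 21.6 in OE-MMP28 (two-sided exact permutation test, p = 0.4). TGFB1 made up 90.4%, 93.0% and 93.1% of that sum in the Vector libraries and 57.4%, 68.5% and 72.9% in the OE-MMP28 libraries. TGFB2 made up 7.79%, 4.49% and 5.71% against 38.9%, 29.6% and 24.6%. The shares of both ligands therefore did not overlap between groups. With 3 libraries against 3, the smallest p an exact permutation test allows is 0.1, which is the value for both the TGFB1 and the TGFB2 share (adjusted over 5 such measures, 0.25). The OE-MMP28 minus Vector difference in the TGFB1 share was -25.9 percentage points, and -24.0 points per length of the longest coding transcript, a setting chosen after seeing the data. The TGFB3 share was 1.82% ± 0.679 and 2.68% ± 0.926 (SD, n = 3, exact permutation p = 0.3).

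**Figure D2:**
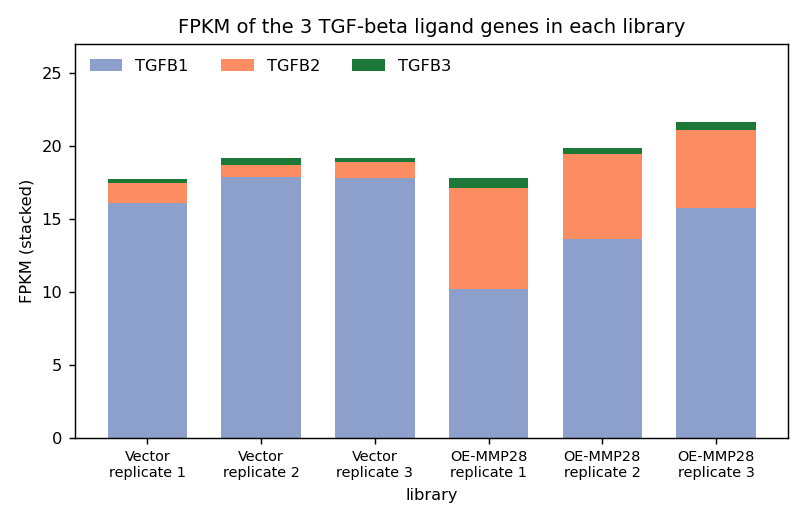
Stacked FPKM of TGFB1, TGFB2 and TGFB3 in each of the 6 libraries, with bars starting at 0. The totals lie between 17.8 and 21.6, and the TGFB2 segment is 24.6% to 38.9% of the OE-MMP28 bars and at most 7.79% of the Vector bars.

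The receptors showed no difference past the test. TGFBR2, the type II receptor (ENSG00000163513, chr3:30606502-30694142, plus strand), had the highest level of the 10 genes, with 85.4, 95.4 and 85.7 FPKM in Vector and 104, 105 and 72.6 FPKM in OE-MMP28. OE-MMP28 replicate 3 lay below all Vector libraries and the other two above them. The log2 fold change was 0.089 (95% interval -0.23 to 0.41, edgeR quasi-likelihood test, adjusted p = 0.724), and its sign turned without OE-MMP28 replicate 1 (-0.0027) or replicate 2 (-0.014).

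TGFBR1, the type I receptor (ENSG00000106799, chr9:99104038-99154192, plus strand), had 3.41, 2.90 and 3.48 FPKM in Vector and 3.55, 2.87 and 2.40 FPKM in OE-MMP28. The ranges overlapped, with a log2 fold change of -0.14 (95% interval -0.52 to 0.23, edgeR quasi-likelihood test, adjusted p = 0.608). Per length, TGFBR2 was 27.3-fold above TGFBR1 in Vector and 31.9-fold in OE-MMP28 (log2 ratios 4.77 ± 0.235 and 5.00 ± 0.170, SD, n = 3, exact permutation p = 0.3).

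The signal-carrying SMADs stayed within narrow ranges. SMAD3 (ENSG00000166949, chr15:67063763-67195195, plus strand) had 31.9, 32.9 and 31.5 FPKM in Vector and 34.6, 36.1 and 35.7 FPKM in OE-MMP28. SMAD2 (ENSG00000175387, chr18:47808957-47931146, minus strand) had 1.03, 0.924 and 1.00 FPKM against 1.19, 1.05 and 1.04 FPKM. The groups did not overlap for either gene, but both log2 fold changes were 0.16 and neither passed the test (edgeR quasi-likelihood test, adjusted p = 0.446 for SMAD3 and 0.493 for SMAD2). The upper ends of their 95% intervals were 0.44 and 0.48 on the log2 scale. Of all tested genes, 38.1% had groups that did not overlap in scaled CPM, against 4 of the 10 here, which are TGFB2, SMAD2, SMAD3 and SMAD6.

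SMAD4, the partner shared with other branches of the family (ENSG00000141646, chr18:51028394-51085045, plus strand), had 2.43, 2.14 and 2.33 FPKM in Vector and 2.56, 2.38 and 2.40 FPKM in OE-MMP28. Its log2 fold change was 0.10 (95% interval -0.23 to 0.43, edgeR quasi-likelihood test, adjusted p = 0.687). AsPC-1 is known to carry a missense change in SMAD4, which a read count does not show. SMAD2, SMAD4 and SMAD7 lie close together on chromosome 18, where the medians over neighbouring genes were 0.18 to 0.20. Set against their neighbours, SMAD2 and SMAD4 had log2 fold changes of -0.041 and -0.076 (adjusted p = 0.897 and 0.792, edgeR).

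SMAD6, an inhibitory SMAD best known for blocking the bone morphogenetic protein branch, rose in OE-MMP28. It had 4.09, 5.49 and 3.73 FPKM in Vector, from 535, 635 and 471 counts. It had 7.50, 8.25 and 8.63 FPKM in OE-MMP28, from 1016, 1120 and 1244 counts. All OE-MMP28 libraries were above all Vector libraries, with means of 4.44 ± 0.928 and 8.13 ± 0.576 FPKM (SD, n = 3 each). The fold was 1.85 (95% interval 1.45 to 2.36), a log2 fold change of 0.89 with a standard error of 0.17 (edgeR quasi-likelihood test, adjusted p = 0.000901). It ranked number 718 of 15319 by log2 fold change and was past the threshold in 17 of 17 alternative settings. SMAD3 lies 281 kb from SMAD6 on chromosome 15, and the 75 tested genes within 5 Mb of SMAD6 had a median of -0.0047, with 6 higher and 6 lower.

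SMAD6 (ENSG00000137834) lies at chr15:66702228-66782848 on the plus strand of GRCh38. The 250 bases before its RefSeq start, chr15:66701986-66702235 on the plus strand (sequence from RefSeq, GRCh38.p14), are given because SMAD6 was the only SMAD past the test. Capitals mark the palindrome GTCTAGAC, the binding element described for SMAD3 and SMAD4, at 12 to 5 bases before the start. The first base of the gene in GENCODE, given above, falls inside this palindrome, so by that annotation it is not wholly upstream.
SMAD6: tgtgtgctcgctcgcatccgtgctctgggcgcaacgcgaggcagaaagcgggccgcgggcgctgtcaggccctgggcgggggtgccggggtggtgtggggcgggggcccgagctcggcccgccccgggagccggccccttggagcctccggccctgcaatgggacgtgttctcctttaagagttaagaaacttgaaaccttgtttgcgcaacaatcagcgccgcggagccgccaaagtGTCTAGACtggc
GTCTAGAC was found in 64 of the 35116 windows (0.182%) and in none of the other windows of the 10 genes. The AP-1 letters TGANTCA, found in 6.57% of windows, were in neither printed window and in 1 window of SMAD3. A missing match says only that these letters are not in the window.

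SMAD7, the inhibitory SMAD that recruits ubiquitin ligases to TGFBR1 (ENSG00000101665, chr18:48919853-48952052, minus strand), had 1.86, 2.47 and 1.95 FPKM in Vector and 2.46, 3.36 and 3.13 FPKM in OE-MMP28. The highest Vector and the lowest OE-MMP28 library were level. The log2 fold change was 0.53 (95% interval 0.11 to 0.94, edgeR quasi-likelihood test, adjusted p = 0.0637). It was past the threshold in only 2 of 17 settings. These were without Vector replicate 2 (0.66, adjusted p = 0.0351) and without OE-MMP28 replicate 1 (0.63, adjusted p = 0.0342, edgeR). The 26 neighbours of SMAD7 had a median of 0.19, and set against them SMAD7 had 0.33 (adjusted p = 0.283).

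In all, 2 of the 10 genes were higher and 0 were lower at an adjusted p under 0.05, and their median log2 fold change was 0.16. Of all tested genes, 23.4% were called in either direction, 11.7% higher and 11.6% lower, with a median of 0.014. A count of 2 in 10 is near that background.

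**Figure D3:**
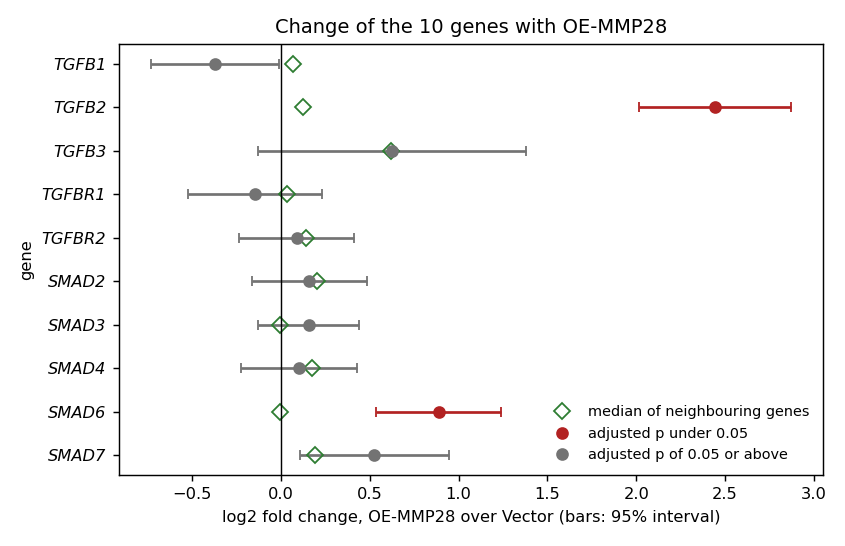
Log2 fold change of OE-MMP28 over Vector for the 10 genes with 95% intervals (red, adjusted p under 0.05), and the median of the tested genes within 5 Mb (green diamonds). TGFB2 at 2.44 and SMAD6 at 0.89 lie far from their local medians of 0.12 and -0.0047, while TGFB3 lies on its local median of 0.62.

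**Figure D4:**
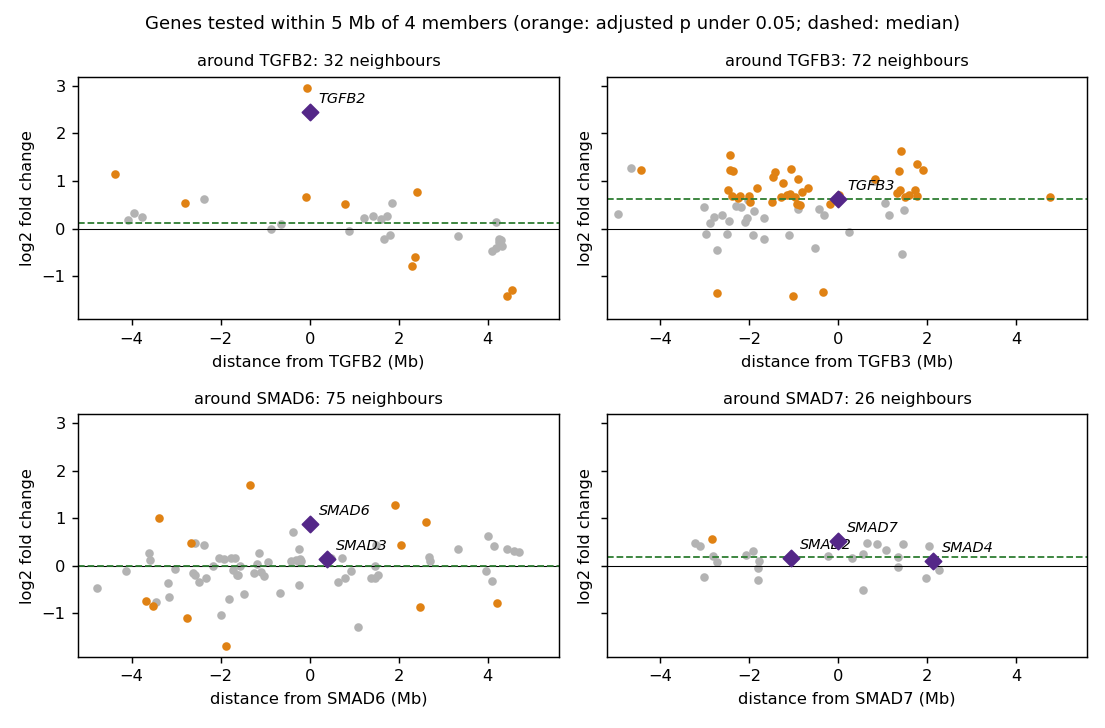
Log2 fold change of each tested gene against its distance from TGFB2, TGFB3, SMAD6 or SMAD7 in Mb, with the local median dashed. The neighbours of TGFB3 are shifted upward with a median of 0.62, whereas those of SMAD6 spread around -0.0047.

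By level per length, TGFBR2 stood first in both groups, followed by SMAD3, TGFB1 and SMAD6 with ranges that did not overlap. In Vector the order went on with TGFBR1, SMAD4, SMAD7, TGFB2, SMAD2 and TGFB3. SMAD4 and SMAD7 overlapped there, as did TGFB2 and SMAD2. In OE-MMP28, TGFB2 moved from place 8 to place 5, ahead of SMAD7, TGFBR1 and SMAD4, whose ranges overlapped. The deposited FPKM divides by the bases of all annotated exons, which are 36366 for SMAD2 and 8563 for SMAD6. The longest coding transcripts have 34526 and 3835 bases, so this other length hardly moves SMAD2. In Vector, SMAD2 had 574, 454 and 536 counts and TGFB2 had 109, 60 and 83, so the place of SMAD2 below TGFB2 rests on its length. Per coding transcript, SMAD6 stood at place 3 and overlapped TGFB1 in OE-MMP28.

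Across the 6 libraries, the genes whose log2 CPM was most like that of TGFB2 were MRPS14 (Pearson r = 0.9996), SH2B3 (r = 0.9988) and CXorf40B (r = 0.9986). Their log2 fold changes were 0.51, 0.68 and 0.34. Since the 6 libraries form 2 groups, these correlations largely repeat the group difference, and 557 genes had r above 0.95.

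Of 11 genes listed for latency and activation of the ligands, 9 were tested, 1 was higher and 4 were lower. Their median log2 fold change was -0.49. The 1 higher gene was LTBP2, a member of the family that does not itself store the ligands. Of all tested genes, 11.7% were higher and 11.6% lower, with a median of 0.014, and a difference of the list from them was not tested. LTBP1, which holds the latent ligand in the matrix, was 2.25-fold lower (7.21 ± 0.315 to 3.18 ± 0.581 FPKM, adjusted p = 5.35e-05). THBS1, thrombospondin 1, an activator of the latent complex, was 1.67-fold lower (12.9 ± 0.183 to 7.67 ± 0.858 FPKM, adjusted p = 0.00120). ITGB6, the integrin chain that opens the latent complex together with ITGAV, was 1.65-fold lower (adjusted p = 0.00443). LTBP3 was 1.54-fold lower (adjusted p = 0.0167), and its call was lost in 4 of 17 settings. LTBP2, which unlike its relatives does not bind latent TGF-beta, was 2.27-fold higher (0.729 ± 0.239 to 1.64 ± 0.213 FPKM, adjusted p = 0.00104, edgeR throughout).

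Several of these genes lie among neighbours that moved the same way. The median log2 fold change within 5 Mb was -0.49 around LTBP1, -0.47 around ITGB6 and 0.58 around LTBP2, the last on the same stretch of chromosome 14 as TGFB3. Set against these neighbours, LTBP1 kept its call at -0.69 (adjusted p = 0.00825), while ITGB6 (-0.25, adjusted p = 0.348) and LTBP2 (0.60, adjusted p = 0.0808) lost theirs. Around THBS1 the median was -0.075. Around LTBP3 it was 0.27, and set against its neighbours LTBP3 had a log2 fold change of -0.89 (adjusted p = 0.00227, edgeR). LRRC32, which anchors latent TGF-beta on regulatory T cells, had a count of 0 in every library, which allows up to 0.180 to 0.220 CPM by library (3 counts, counting error only). NRROS was too low to test.

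Of 9 other receptors of the family, 8 were tested, 0 were higher and 2 were lower, with a median of -0.16. That is 25% called, near the 23.4% of all tested genes. ACVR1, a type I receptor for bone morphogenetic proteins and activins, was 1.75-fold lower (7.68 ± 0.726 to 4.35 ± 0.587 FPKM, adjusted p = 0.00200). Its neighbours had a median of -0.47, and set against them its log2 fold change was -0.34 (adjusted p = 0.192). ACVR2B, a type II activin receptor, was 1.66-fold lower at under 1 FPKM (adjusted p = 0.0119). Its call was lost in 2 of 17 settings, with adjusted p = 0.0643 for limma on log2(FPKM + 0.1) and 0.0561 without OE-MMP28 replicate 3. The betaglycan gene TGFBR3, a co-receptor that presents TGFB2 to TGFBR2, had 1.65 and 2.45 FPKM (log2 fold change 0.58, adjusted p = 0.0669, edgeR), a difference not past the threshold.

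Among 20 regulators, all tested, 3 were higher and 2 were lower, with a median of -0.10. Again 25% were called, near the 23.4% of all tested genes. PMEPA1, a TGF-beta-induced inhibitor of SMAD2 and SMAD3 activation, was 1.56-fold higher (59.6 ± 3.40 to 92.1 ± 3.56 FPKM, adjusted p = 0.00244). STRAP, an adaptor that holds SMAD7 at the receptor, was 1.63-fold higher (63.9 ± 11.9 to 104 ± 10.6 FPKM, adjusted p = 0.00289). The related ubiquitin ligases moved apart: SMURF2 was 1.51-fold higher (13.1 ± 1.28 to 19.7 ± 2.24 FPKM, adjusted p = 0.00689) and SMURF1 was 1.52-fold lower (126 ± 14.6 to 82.3 ± 4.07 FPKM, adjusted p = 0.00450). DAB2, an adaptor between receptors and SMADs, was 1.59-fold lower (adjusted p = 0.00650, edgeR throughout). The corepressors SKI, SKIL, TGIF1 and TGIF2 did not pass the test.

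Over the 3 lists together, 12 of 37 tested genes (32.4%) were called, 4 higher and 8 lower, beside 23.4% of all tested genes. By list, 55.6% were called in the latency and activation list, LTBP2 included, and 25% among both receptors and regulators. A difference between this share and the background was not tested.

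Among listed genes known to be induced by TGF-beta, those called lay on both sides of 0. PMEPA1, described above as TGF-beta-induced and higher in OE-MMP28, was placed with the regulators and is not in this list. Of 19, 17 were tested, 3 were higher and 2 were lower, with a median of -0.088. That is 29.4% called, beside 23.4% of all tested genes, and a difference between these shares was not tested. The higher ones were TGFBI, a secreted matrix protein (31.9 ± 4.10 to 53.0 ± 1.83 FPKM, adjusted p = 0.00107), PTHLH (0.611 ± 0.214 to 1.34 ± 0.0229 FPKM, adjusted p = 0.0111) and the cell cycle inhibitor CDKN1A (1.58-fold, adjusted p = 0.0229). The lower ones were the cell cycle inhibitor CDKN2B, at 1.42-fold (29.3 ± 2.38 to 20.5 ± 0.885 FPKM, adjusted p = 0.0151), and tropomyosin TPM1, at 1.67-fold (4.16 ± 1.30 to 2.48 ± 0.214 FPKM, adjusted p = 0.00802, edgeR throughout). The calls of CDKN1A, TPM1 and CDKN2B were lost in 5, 3 and 2 of 17 settings. COL1A1 and COL4A1 were too low to test.

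The genes known to be repressed, ID1, ID2, ID3 and MYC, had log2 fold changes from 0.10 to 0.52, and 0 of 4 passed the edgeR test (adjusted p from 0.161 to 0.672).

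**Figure D5:**
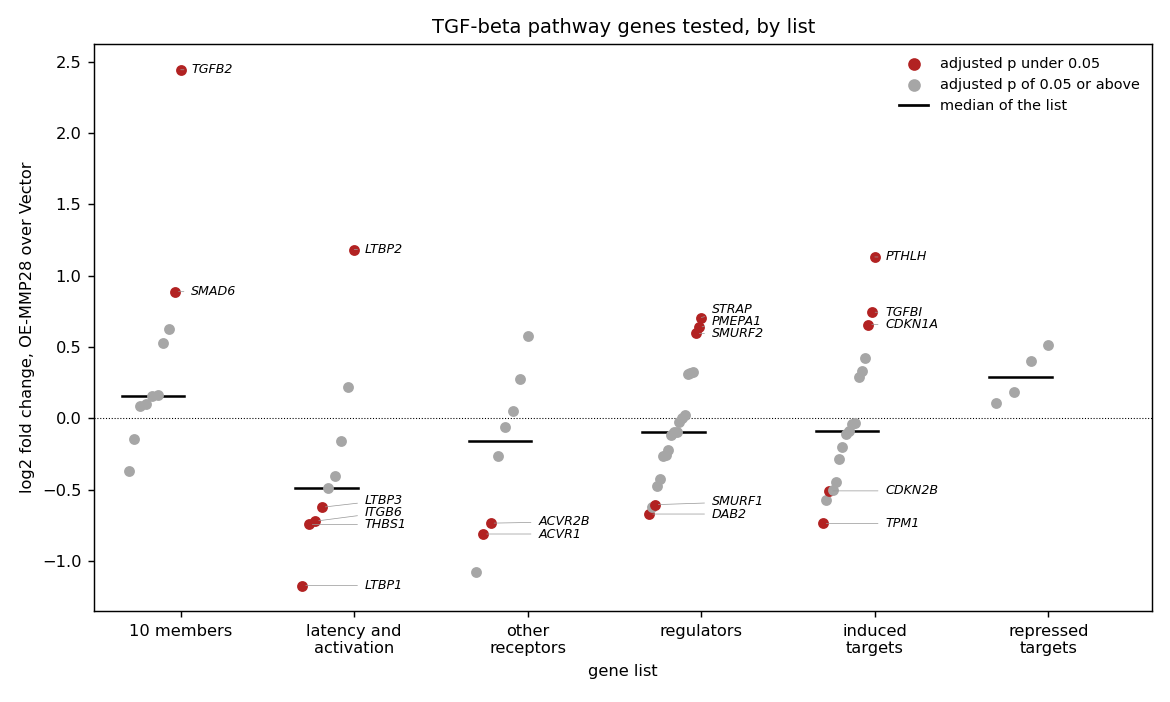
Log2 fold change of each tested gene in 6 lists, sorted within the list, with a black line at each median (red and named, adjusted p under 0.05). The latency and activation list has its median at -0.49, while called induced targets lie on both sides of 0.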

How the data were processed

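RNA of 6 libraries was analysed, and groups follow the labels. A single table deposited by the authors gives counts per gene, neither scaled nor averaged, beside FPKM for each library. Their processing notes name HISAT2 2.0.5 and featureCounts 1.5.0-p3, while the strand setting and the handling of reads that match several places are not given in the sources used here. The table also holds log2 fold changes and p-values of the authors' own comparison, which were not used. All 58735 gene identifiers had the coordinates of GENCODE release 29 on GRCh38.

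Counts were filtered by filterByExpr (minimum count 10, minimum total 15), scaled by TMM and tested with the quasi-likelihood test of edgeR 4.0.16 in R 4.3.3, with group as the only term and Benjamini-Hochberg adjustment over 15319 genes. Standard errors were taken from the F statistic. Shares and ratios were compared by two-sided exact permutation tests. The 10 genes and all lists were chosen with earlier results of these data known. Named were all 10, MMP28, listed genes past an adjusted p of 0.05 or at 0 counts, genes overlapping the 10, and the 3 most like TGFB2; others are given where a list is described, and 1 gene of the induced targets is not reported here and not counted. Across genes, libraries of a group differed beyond sampling noise (chi-square per degree of freedom 13.9 to 28.0), so none was a repeat deposit. The same numbers did not pair libraries (correlations of deviations 0.017, 0.0080 and -0.088). Alternatives used DESeq2 1.42.0 and limma 3.58.1. The analysis was tested on simulated data. RefSeq promoter windows were matched by symbol for 10 of 10 genes.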

Additional observations from a re-analysis of the deposited data

How the results depend on the processing

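Each gene test was repeated in 17 settings. The TGFB1 share and the TGFBR2 to TGFBR1 ratio were repeated only with 1 library left out and in CPM, and the share also per coding transcript. TGFB2 (log2 fold change 1.74 to 2.63, adjusted p 1.55e-27 to 0.000218) and SMAD6 (0.76 to 1.07, adjusted p 1.62e-05 to 0.0111) stayed past the threshold in all 17. The sign of TGFBR2, never past the threshold, turned to -0.050 when neighbouring genes were taken as offset and ranged from -0.014 to 0.24 when 1 library was left out. With the offset, SMAD2 was at -0.041 and SMAD4 at -0.076. The cause was not tested. With a replicate block, 2 of the 10 genes were higher and 0 lower, and no call among the 10 changed. TGFB2 was then at 2.46 and SMAD6 at 0.90, and 5 pathway genes were higher and 10 lower. Without a block 8 pathway genes were lower. That count was 6 with limma on log2(FPKM + 0.1) and 11 with upper-quartile scaling of library totals. The genes called numbered 3579 in all, and 2029 without OE-MMP28 replicate 2, 2367 without Vector replicate 3 and 2372 with the offset. Without OE-MMP28 replicate 2, DAB2 was at adjusted p 0.0602 (edgeR). The difference in the TGFB1 share was -32.6 points in CPM and -29.2 to -21.5 points with 1 library left out. The induced targets called lower numbered 2, 1 to 3 with 1 library left out, and 1 with limma on log2(FPKM + 1) or log2(FPKM + 0.1). Depth limits TGFB3, with 16 to 51 counts per library.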
